A study of Mus musculus with 24 samples.

Results

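The transcripts described here are 5 of the exocrine pancreas (Ctrc, Cel, Cpa1, Pnlip and Clps) and 5 of striated muscle (Mb, Ckm, Acta1, Tnnt3 and Mylpf), all measured in liver RNA. The members were chosen from the earlier observation that such genes were high on 1 newborn array, so the comparisons that contain that array are descriptions, and the counts of calls given for them support nothing. They are the 10 genes named so on the array design, with 12 probes between them, of 27337 genes on the array and 20537 measured. All 10 passed the filter on low signal (the probe read well above background throughout some group of arrays), and 11 of the 12 probes did. Pnlip and Tnnt3 have 2 probes each, and the brighter one stands for the gene.

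Mouse liver RNA was hybridised to 24 one-colour arrays in 10 groups. Dams changed from a breeder diet to a defined one that held vitamin A (sufficient) or lacked it (deficient) at embryonic day 4.5, and stayed on it until the offspring were taken at birth (postnatal day 0, PN0) or at weaning (postnatal day 21, PN21). At PN0 the genotypes were wild-type C57Bl/6J and Cyp1b1-null, each on both diets, with 2 arrays per group, and each sample was a pooled litter. At PN21 they were wild type and R-Cyp1b1-null with 3 arrays per group, and Cyp1b1-null with 2, from male mice with 1 to 4 animals per array; R-Cyp1b1-null is a substrain of the null line that resists obesity brought on by diet. The 3 wild-type sufficient PN21 arrays carried a single pool of 4 mice and count as 1 sample, which leaves 22 samples. Cyp1b1 is a cytochrome P450 that oxidises retinoids, oestrogens and xenobiotics. Its probe read higher on the 14 arrays of the null lines (relative log2 -0.96 to 0.93) than on the 10 wild-type arrays (-5.07 to -1.23), and the sources used here do not say whether the probe lies in the deleted part, so this signal does not check the genotype labels, which are used as given throughout. Hepatocyte genes such as albumin were high on 22 arrays (median over 17 genes 8.03 to 9.26 in relative log2) and lower on 2 arrays described further on. The labels do not say whether arrays of a group came from separate litters, so p-values measure the spread between these samples.

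The exocrine pancreas makes digestive enzymes as inactive precursors in acinar cells, which release them to the gut. Skeletal muscle contracts by sliding actin filaments along myosin under control of the troponin complex, and keeps energy and oxygen at hand in creatine phosphate and myoglobin. Hepatocytes make albumin, apolipoproteins and clotting factors and are not a textbook source of either gene set, while the pancreas, the diaphragm and the gut lie beside the liver. In bulk RNA, a change in the number of cells of a type cannot be told apart from a change in RNA per cell.

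Probes of 5 members are shown because their brightness is the measurement, and all 5 genes were among those highest on the newborn array. They are 60 bases long and are given with their positions in mouse build mm9 per the array design. The Ckm and Mylpf probes span more genome than their own length.
Ctrc probe, chr4:141394627-141394686, minus strand: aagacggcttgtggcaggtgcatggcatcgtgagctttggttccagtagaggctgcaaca
Cel probe, chr2:28411609-28411668, minus strand: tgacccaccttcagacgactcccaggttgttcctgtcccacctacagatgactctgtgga
Acta1 probe, chr8:126416197-126416256, minus strand: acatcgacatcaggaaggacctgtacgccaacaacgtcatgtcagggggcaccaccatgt
Ckm probe, chr7:20002222-20004829, plus strand: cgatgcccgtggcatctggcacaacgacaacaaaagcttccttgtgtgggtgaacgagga
Mylpf probe, chr7:134356749-134356985, plus strand: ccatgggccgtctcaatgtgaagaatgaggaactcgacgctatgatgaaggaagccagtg
Acta1 shares most of its coding sequence with the other actins, and how far its probe also binds their transcripts was not tested. The brighter Pnlip probe lies at chr19:58748342-58748401, and the other at chr19:58755296-58755355.

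Promoters of 3 members are shown because these genes were high on the same array. RefSeq windows (GRCm38.p6) of 250 bases before the start site were matched by symbol for 7 of the 10 members, in 9 windows: Cel, Cpa1, Pnlip, Ckm, Acta1 and Mylpf with 1 window each, and Mb with 3. Capitals mark 3 motifs searched on both strands, which do not overlap one another in these windows. CACCTG is the E-box form bound by the acinar factor PTF1, CAGCTG the form bound by MyoD, and TATAAA the TATA box.
Cel promoter, chr2:28563404-28563653, minus strand: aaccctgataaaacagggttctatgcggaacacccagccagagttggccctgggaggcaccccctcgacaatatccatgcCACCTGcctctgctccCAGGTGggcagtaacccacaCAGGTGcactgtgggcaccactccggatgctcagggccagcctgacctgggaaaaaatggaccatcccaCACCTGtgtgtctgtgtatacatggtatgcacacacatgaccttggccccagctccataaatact
Acta1 promoter, chr8:123894776-123895025, minus strand: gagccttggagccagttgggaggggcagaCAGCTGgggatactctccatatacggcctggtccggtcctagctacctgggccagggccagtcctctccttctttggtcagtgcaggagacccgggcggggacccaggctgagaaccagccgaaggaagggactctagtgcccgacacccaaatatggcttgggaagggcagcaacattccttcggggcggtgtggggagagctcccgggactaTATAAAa
Ckm promoter, chr7:19410844-19411093, plus strand: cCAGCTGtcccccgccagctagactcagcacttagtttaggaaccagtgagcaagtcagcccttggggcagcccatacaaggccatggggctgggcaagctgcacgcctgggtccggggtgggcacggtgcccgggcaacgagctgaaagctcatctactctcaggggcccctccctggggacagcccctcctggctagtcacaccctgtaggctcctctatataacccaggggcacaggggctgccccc
CACCTG, or CAGGTG as it reads from the other strand, stood 4 times in the Cel window and in 17.2% of all 32851 windows of this length. It stood in neither the Cpa1 nor the Pnlip window, and the Cpa1 window held none of the 3 motifs. CAGCTG stood once each in the windows of Acta1, Ckm and Mylpf and in 2 of the 3 Mb windows, which overlap, and in 13% of all windows. TATAAA stood in the windows of Acta1 and Pnlip and in 12.4% of all windows. These matches describe letters and carry no statement on binding.

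The 2 arrays of PN0 Cyp1b1-null mice on the sufficient diet differed widely in 9 of the 10 genes, muscle and pancreas alike. Values are the scanner's processed signal, and a relative level is its log2 minus the 75th percentile of that array. The 75th percentile was 427 on array 1 and 517 on array 2, and the median gene differed by -0.13 between them (array 2 minus array 1, log2), with 3.09% of 20535 genes higher by over 2-fold and 5.20% lower. Array 2 had the highest relative level of all 24 arrays for 9 of the 10 genes. Pnlip was the exception.

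Among the muscle genes, Acta1, the actin of skeletal muscle thin filaments, read 162 on array 1 and 79670 on array 2, a relative difference of 8.67. No spot of it was saturated. On the 2 deficient arrays of the same genotype it read 24.8 and 3650, and on the 4 wild-type PN0 arrays 15.98, 196, 170 and 33.6. The wild-type values overlapped those of null sufficient array 1 and null deficient array 1, and only the second array of each null group lay above them all. Ckm, the creatine kinase that regenerates ATP in muscle, read 17.6 and 9182 on the sufficient null arrays, 4.01 and 374 on the deficient ones, and between 5.28 and 6.73 on the wild-type ones, where no array was well above background. Mb, the oxygen store myoglobin, read 13.1 and 3467, then 2.48 and 62.4, and 54.4 on wild-type sufficient array 2 against 6.20 to 10.42 on the other wild-type arrays. Both genes were thus near the detection limit on most newborn arrays and highest on null sufficient array 2. Mylpf, the regulatory light chain of fast muscle myosin, read 274 and 35330 on the sufficient null arrays, 236 and 1722 on the deficient ones, and 22.5, 113, 86.2 and 64.25 on the wild-type ones (sufficient 1 and 2, then deficient 1 and 2, as for Acta1). Tnnt3, the fast-muscle troponin T that ties troponin to tropomyosin, read 89.2 and 34240 on the sufficient null arrays, 8.03 and 1635 on the deficient ones, and 6.71, 105, 182 and 47.0 on the wild-type ones. For both, the deficient null array 2 was second only to sufficient array 2 among newborns. The other Tnnt3 probe gave a like difference between the sufficient arrays, 7.94 against 8.31, and the probes correlated with r = 0.94 over the 23 arrays that have both, which share array depth and background.

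Among the pancreas genes, Clps, the cofactor that lets pancreatic lipase work in bile, read 42.6 on array 1 and 6453 on array 2. Ctrc, the chymotrypsin that activates and degrades trypsinogens, read 123 and 6139. Cpa1, a carboxypeptidase that trims digested proteins from their C terminus, read 26.7 and 2946. Cel, the bile salt-dependent lipase also secreted in milk, read 112 and 1705. On the deficient null arrays Clps read 45.8 and 78.4, Ctrc 54.9 and 76.7, Cpa1 34.7 and 65.6, and Cel 91.6 and 91.0. On the wild-type arrays (sufficient 1 and 2, deficient 1 and 2) Clps read 32.8, 68.9, 34.0 and 136, and Ctrc 65.2, 94.3, 109 and 84.3. Cpa1 read 43.97, 48.7, 41.2 and 94.75 there, and Cel 64.8, 72.9, 61.0 and 68.7. Sufficient null array 2 thus lay above the other 7 newborn arrays for each of these 4 genes, with no second high array. The relative differences between the sufficient arrays were 6.97, 5.36, 6.51 and 3.65, and 0.127%, 0.326%, 0.185% and 0.609% of all genes rose more from array 1 to array 2. Pnlip, the classical pancreatic lipase, whose synthesis in rodents is low before weaning, read 7.64 and 12.5, and its other probe read 1.97 and 2.17. It was well above background on array 2 with the first probe, and on no other newborn array with either probe.

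The pancreas and muscle genes did not move together on the second-highest newborn array. From deficient null array 1 to array 2 all 5 muscle genes were higher by over 2-fold, whereas 1 of the 5 pancreas genes was, with a median of 0.67 (6.44% of all genes were higher by over 2-fold). Ckm, Mb and the standing Tnnt3 probe were not well above background on array 1, so the size of their differences has no exact value, and Mylpf differed by 3.05. Genes of other lists were higher on the same array: 23 of 34 other skeletal muscle genes, 5 of 7 bile duct and gallbladder genes (median 1.68), 5 of 8 smooth muscle genes, 4 of 8 islet genes and 2 of 18 other exocrine genes. Their part in the result was not tested. From sufficient null array 1 to array 2 the medians were 8.31 for muscle and 5.36 for pancreas. Among wild-type newborns the muscle median was highest on sufficient array 2 (-1.36) and lowest on sufficient array 1 (-4.55), while the pancreas median was highest on deficient array 2 (-1.52) and lowest on sufficient array 1 (-2.47). No muscle gene was well above background on sufficient array 1, so the muscle median there has no exact value. The 2 sets thus had their highest medians on different wild-type arrays.

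**Figure D1:**
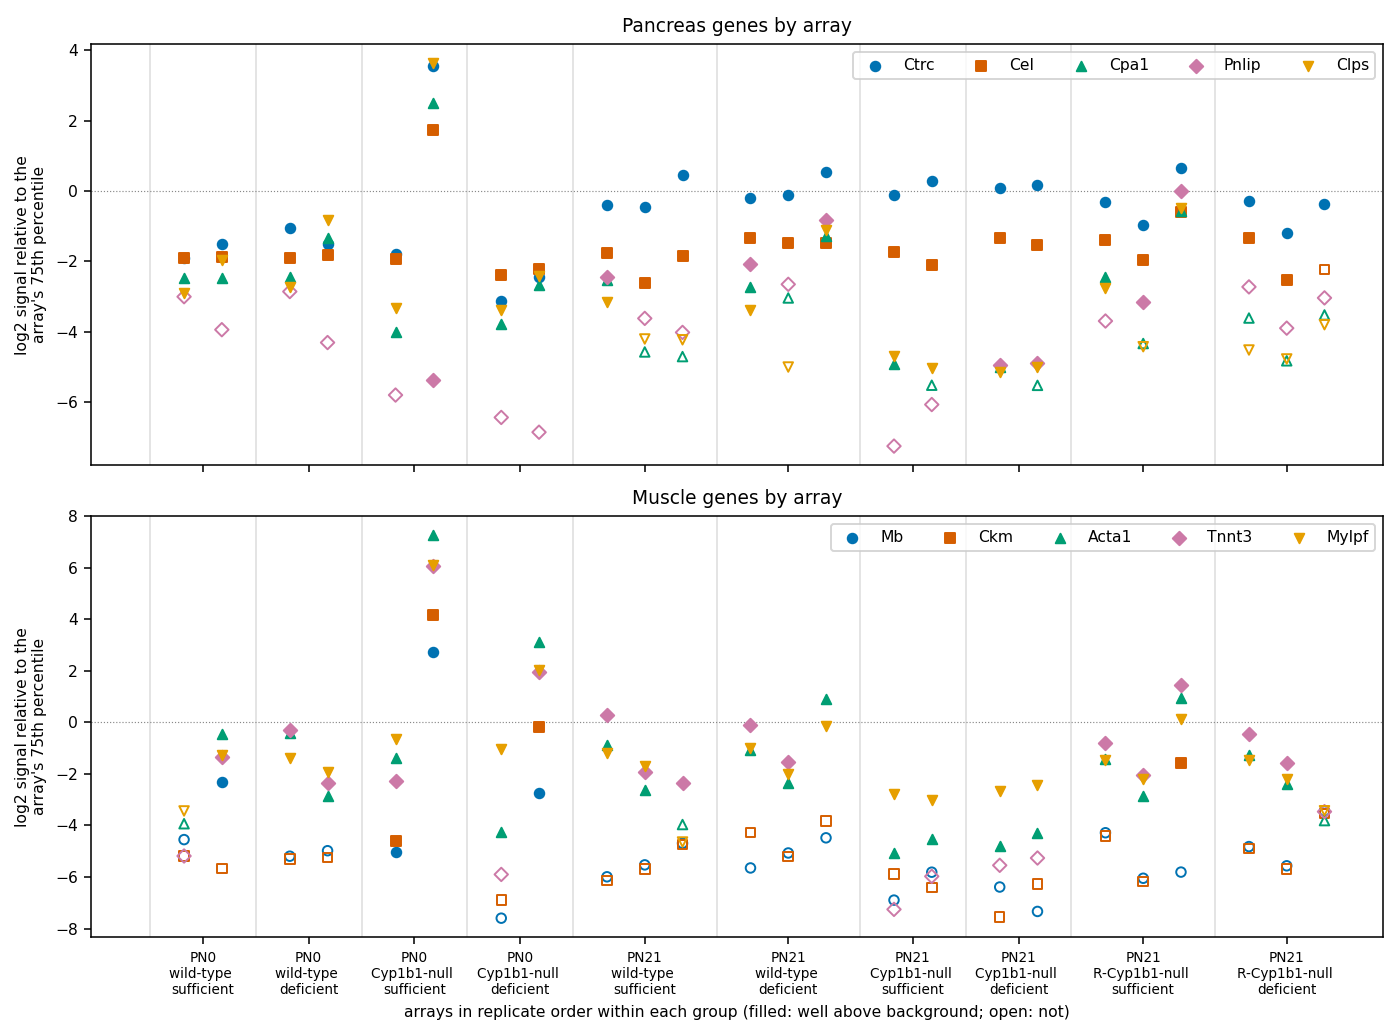
Relative level (log2 signal minus the 75th percentile of the array, y axis) of the 5 pancreas genes (upper panel) and 5 muscle genes (lower panel) on each of the 24 arrays (x axis, by group); filled points were well above background and open points were not. Null sufficient array 2 at PN0 lies above every other array for all genes but Pnlip, and null deficient array 2 lies high for the muscle genes alone; Tnnt3 has no point on wild-type deficient array 3 at PN21, whose spot was an outlier.

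Other genes of the same tissues moved with the members on array 2, and the lists show which parts of those tissues. These lists were drawn up with earlier results known, and a count of genes higher by over 2-fold is read against the 3.09% of all genes. Without the members, 14 of 18 measured exocrine genes were higher on array 2 by over 2-fold (median 3.92), with Cpb1 at 8.15 and Cela3b at 6.91. Of the exocrine genes the enzymes Ctrl (0.22) and Amy2a5 (0.59) and the phospholipase Pla2g1b (0.66) differed little. Of the islet list 6 of 8 genes were also higher (median 3.30), with the insulin genes Ins2 at 7.56 and Ins1 at 6.38, while glucagon, Gcg, stood at -0.33. Genes named here beyond the first pair of each list were chosen after their values were seen.

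Without the members, 32 of 34 measured skeletal muscle genes were higher by over 2-fold (median 6.36), with Sln, a regulator of the calcium pump, at 9.05 and the myosin light chain Myl1 at 8.59. Embryonic myosin Myh3 (6.87), perinatal Myh8 (7.57), slow Myh7 (7.13) and fast Myh4 (7.93) were all higher. Of the heart list 6 of 10 genes were higher, led by Myl3 (8.32) and Myl2 (7.91), the light chains that slow skeletal muscle shares with the ventricle. The others that were higher were Actc1 (3.39), Tnnt2 (1.57), Tnni3 (1.33) and Myl4 (1.08), and Nppa (-0.18), Myl7 (-0.26), Mybpc3 (-0.49) and Pln (-0.81) were not. Of the smooth muscle list 2 of 8 were higher, Des (4.81), which striated muscle also uses, and Acta2 (1.97). None of the 8 stomach genes, 8 intestine genes or 7 bile duct and gallbladder genes was higher by over 2-fold. The 17 hepatocyte genes had a median of -0.30 and none was higher by over 2-fold, and the 8 erythroid genes had a median of -0.06. Summed over the list, skeletal muscle signal was 14.2 times the 75th percentile on the lower of the 2 sufficient null arrays and 1387 times on the higher, against 9.23 and 96.9 on the deficient ones and 9.31 to 38.7 in the wild-type newborn groups. Exocrine signal was 7.54 and 103 times on the sufficient null arrays and 5.57 to 8.85 in all other newborn groups.

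**Figure D2:**
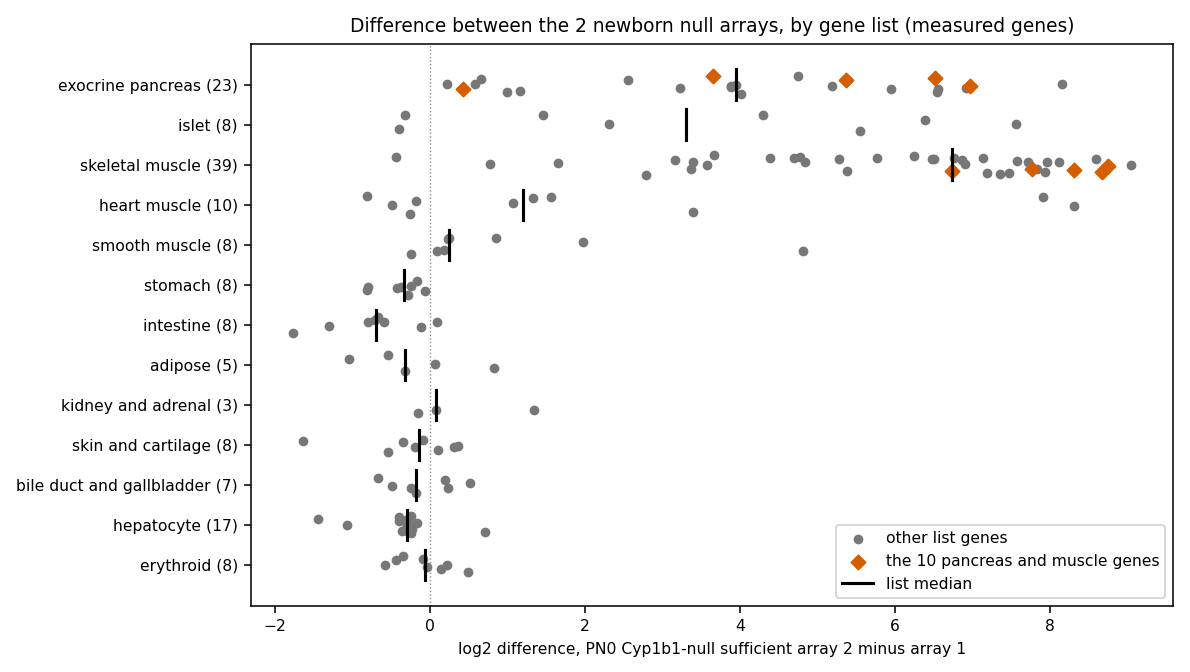
Log2 difference between the 2 PN0 Cyp1b1-null sufficient arrays (array 2 minus array 1, x axis) for each measured gene of 13 lists (rows, with the number of genes), with the 10 members as diamonds and the list median as a bar. Exocrine, islet and skeletal muscle genes lie to the right, and stomach, intestine, bile duct, hepatocyte and erythroid medians lie between -0.69 and -0.06.

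With 2 arrays per group, this array set the group means of the comparisons that hold it, on which the members were chosen. PN0 Cyp1b1-null minus wild type on the sufficient diet had differences from -2.11 (Pnlip) to 5.20 (Ckm), with 9 of 10 higher. With limma 0 of the members and 2.37% of all genes were called there, and with the members chosen there nothing is read from that count. Without array 2, 5 of the 10 differences changed sign and 4 were above 0, with a median of -0.06 in place of 2.59. Acta1 went from 5.13 to 0.79, Ctrc from 2.59 to -0.09 and Cpa1 from 1.72 to -1.53. For the diet in PN0 Cyp1b1-null mice (deficient minus sufficient) all 10 differences were below 0, from -4.04 (Mb) to -1.06 (Pnlip), with 0 called and 0% of all genes called. Without array 2, 6 changed sign, and the median went from -3.19 to 0.36. Genotype and slide cannot be told apart at PN0, since each genotype lay on a slide of its own.

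The remaining question was whether diet or genotype moved these genes in samples that had not served to choose them. In the comparisons that hold no PN0 null sufficient array, 0 of the 10 genes was called at a limma adjusted p under 0.05 (the median SE of the members was 1.31 to 1.97 by comparison). The shares of all genes called were 0% for the diet in PN0 wild type, 0% for the diet in PN21 wild type, 0.0195% for PN21 Cyp1b1-null against wild type, 0% for PN21 R-Cyp1b1-null against wild type, 0.00487% for the diet in PN21 Cyp1b1-null, 0.00487% for the diet in PN21 R-Cyp1b1-null and 1.86% for wild type at PN21 against PN0. At an unadjusted limma p under 0.05 the count was 1 (Pnlip, PN21 Cyp1b1-null against wild type). In that comparison 2475 of all 20537 genes were under the same limit, so Pnlip is not singled out by it. The smallest limma adjusted p in these comparisons was 0.160. Slide cannot be told apart from age in the last of them, nor from genotype in PN21 Cyp1b1-null against wild type. A p that misses the threshold does not show that the groups were alike at these errors. Tests of the difference between the diet effects of 2 genotypes or ages were run over all genes, outside the PN0 null groups. They called 0 members, against 0% to 0.00487% of all genes called. At an unadjusted limma p under 0.05 stood 1 member, in R-Cyp1b1-null minus Cyp1b1-null at PN21. In that test 168 of all 20537 genes were under the same limit.

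Pnlip differed between PN21 Cyp1b1-null and wild type on the sufficient diet by -3.30 ± 1.16 (SE, log2, with 2 null samples and 1 wild-type pool). Its processed signal was 2.01 and 5.30 on the null arrays, neither well above background, and 68.9, 23.3 and 9.69 on the 3 arrays of the wild-type pool, of which 1 was. With 2 of the pool's 3 arrays and both null arrays at background, the size has no exact value, and the limma adjusted p was 0.160. Its groups did not overlap, but 88.1% of all genes did not overlap either in this comparison of 2 samples with 1. Without R-Cyp1b1-null sufficient array 3, which shares only the estimate of the spread, Pnlip was 1 of 2010 genes called. Over the other settings, and without each array of the 2 groups in turn, the limma adjusted p ran from 0.00360 to 1.00. The lowest came without the 2 poorly correlating arrays described below. They lie in neither group, so the difference stayed at -3.30 and only the spread changed. All PN21 Cyp1b1-null arrays lay on slide 4, scanned on day 3, and the wild-type PN21 arrays on slides 1 to 3, scanned on days 1 and 2. Genotype therefore cannot be told apart from slide or scan day here. The detection limit differed between these slides too. The lowest relative level well above background was -5.97 to -5.38 on the 8 Cyp1b1-null arrays and -4.08 to -1.62 on the other 16. The part of this difference in the result was not tested. In the same comparison Tnnt3 differed by -5.29 ± 2.99 (SE, limma adjusted p = 0.626) with the standing probe, which was well above background on all 3 arrays of the pool and on neither null array. Its other probe went the other way in detection, well above background on both null arrays (signal 10.47 and 14.12) and on 1 array of the pool, with means of -4.77 in the null group and -2.63 over the pool. In all, 2 of the 10 members were above 0 in this comparison, but 7 were with quantile normalization, with which Pnlip differed by -1.47 and Tnnt3 by -3.84. With normexp background correction Pnlip differed by -0.99 and Tnnt3 by -2.09. The diet in the null mice at PN21 gave differences from -0.77 (Ckm) to 1.74 (Pnlip). Ckm was well above background on none of those arrays. The standing Pnlip probe was on both deficient arrays and neither sufficient one, and passed the filter only through that deficient group. The other Pnlip probe had means of -6.79 deficient and -7.02 sufficient. The diet in PN0 wild type gave differences from -1.66 (Mb) to 1.94 (Tnnt3). Mb was well above background there on 1 sufficient array only. The other Tnnt3 probe had means of -1.88 deficient and -2.19 sufficient.

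The diet in PN21 wild type raised or lowered no member past the threshold, though all 10 differences were above 0 (from 0.20 for Ctrc to 1.64 for Acta1). In R-Cyp1b1-null mice 9 of 10 were below 0 (from -1.81 for Clps to 0.77 for Mb). The groups of 3 overlapped for every member (7.60% of all genes did not overlap). Mb was well above background on none of those arrays and Clps on none of the deficient ones, so neither size is exact. Without the 2 arrays of slide 3 that stood apart, described next, 8 members were above 0 in wild type and 4 in R-Cyp1b1-null mice. The medians over the members then went from 0.89 to 0.72 and from -1.07 to -0.35. R-Cyp1b1-null against wild type on the sufficient diet gave differences from -0.08 (Ctrc) to 1.49 (Cpa1), with 9 above 0, and 7 without those arrays. Slides 1 to 3 each held 1 array of the wild-type and R-Cyp1b1-null groups on each diet, so the differences can be taken within a slide. For the wild-type diet the median over the members was 0.20 on slide 1, 0.44 on slide 2 and 3.13 on slide 3, the last over 9 genes because Tnnt3 had an outlier spot. For the R-Cyp1b1-null diet it was 0.01, -0.12 and -2.99, and for R-Cyp1b1-null against wild type on the sufficient diet 0.10, -0.23 and 3.77. On slide 3 only 1 of the 10 members was well above background on the R-Cyp1b1-null deficient array, and 3 were on the wild-type sufficient array. The slide 3 medians are therefore not exact sizes. Acta1 shows the pattern: its wild-type diet difference was -0.19, 0.25 and 4.87, and its R-Cyp1b1-null diet difference 0.16, 0.48 and -4.74. On slide 3 the lower array of both differences was not well above background for Acta1, so these sizes are not exact. Ctrc had the smallest slide 3 difference of the wild-type diet, 0.07, against 0.21 and 0.34 on the other slides.

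**Figure D3:**
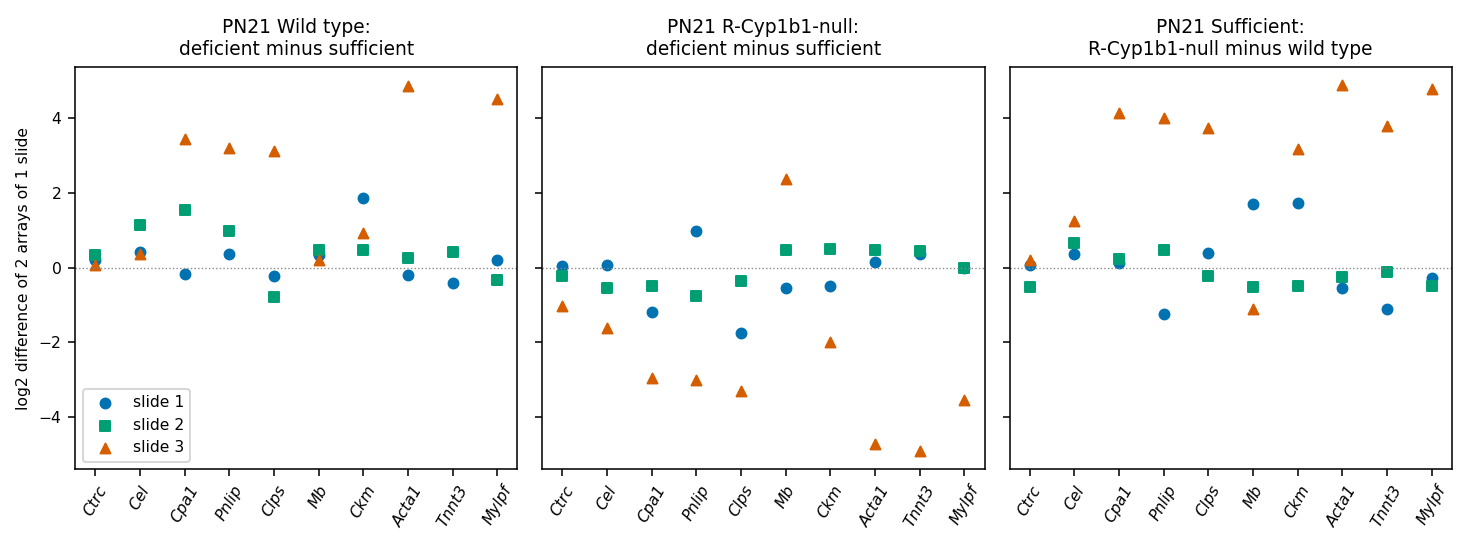
Log2 difference between 2 arrays of the same slide (y axis) for each member (x axis) in 3 PN21 comparisons (panels), with colours and shapes for slides 1, 2 and 3. Slides 1 and 2 lie within -1.76 and 1.86, while slide 3 reaches from -4.92 to 4.90. Most members were not well above background on the wild-type sufficient and R-Cyp1b1-null deficient arrays of slide 3, so sizes there are not exact.

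On slide 3, R-Cyp1b1-null sufficient array 3 and wild-type deficient array 3 stood apart from the other arrays. Their median correlation with arrays of the same age was 0.494 and 0.781, against 0.883 to 0.951 for the other 22 arrays. The 75th percentile that scales every relative level was 1963 on R-Cyp1b1-null sufficient array 3, against 266 and 304 on arrays 1 and 2. On wild-type deficient array 3 it was 374, against 233 and 161 on arrays 1 and 2. All differences below are between levels scaled in this way. On R-Cyp1b1-null sufficient array 3 the 5 pancreas genes were higher than the mean of arrays 1 and 2 by over 2-fold (median 2.81), as were 4 of the 5 muscle genes (median 2.88). There 41.0% of all genes were higher by over 2-fold too, with medians of 1.94 for stomach, 3.21 for intestine and 2.27 for heart genes, and all 17 hepatocyte genes were lower (median -3.78). On wild-type deficient array 3, the RNA of 1 mouse, 3 of 5 pancreas genes and 2 of 4 muscle genes were higher by over 2-fold. Of all genes 28.5% were higher and 32.4% lower by over 2-fold there, and all 17 hepatocyte genes were lower (median -1.61). The high relative member levels on these arrays thus came with high relative levels of other tissues' genes and low ones of hepatocyte genes. Null sufficient array 2 at PN0 instead had high pancreas and muscle genes with a hepatocyte median of 8.09. On the other null PN0 arrays that median was 8.15 to 8.46. What part array quality or the scaling had in either pattern was not tested.

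**Figure D4:**
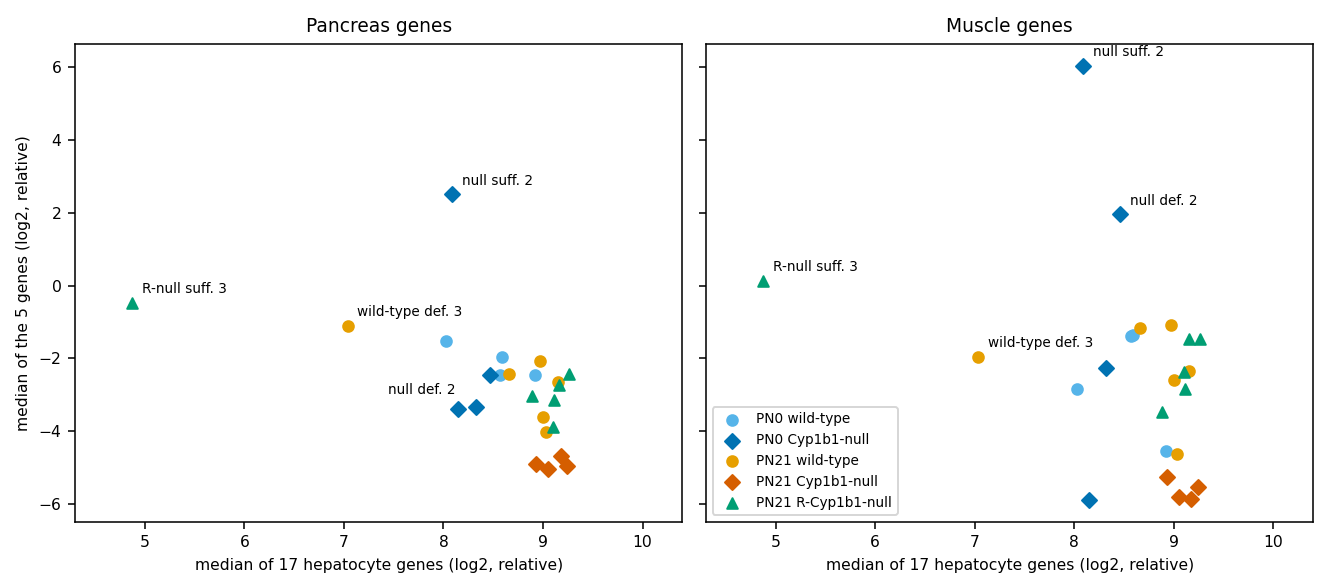
Median relative level of the 5 pancreas genes (left) and 5 muscle genes (right) against the median of the 17 hepatocyte genes on each of the 24 arrays, with colours and shapes for age and genotype. Null sufficient array 2 at PN0 has the highest medians (2.51 and 6.05) at a hepatocyte median of 8.09, and R-Cyp1b1-null sufficient array 3 the next pancreas median (-0.48) at a hepatocyte median of 4.87.

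The 3 arrays of the wild-type sufficient PN21 pool show how far these genes varied with no difference between animals. Acta1 read 204, 47.1 and 10.1 on them, with array 3 not well above background. Mylpf likewise fell to background on array 3. Tnnt3, well above background on all 3, ranged over 2.64 in relative log2, and 7.67% of all genes had a larger range than that, against 1.01 for the median gene. The first of the 3 arrays was the highest for each of these muscle genes. It also had the most probes well above background, 75.7% against 58.9% and 46.6%, and the part of this in the range was not tested. Among the pancreas genes Cpa1 and Pnlip were well above background on 1 of the 3 arrays, while Ctrc (0.92) and Cel (0.87), well above it on all 3, ranged over less than the median gene.

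Ctrc and Cel differed from the rest in being measurable in nearly all livers. Ctrc was well above background on all 24 arrays and Cel on 23, against 4 each for Mb and Ckm, 8 for Pnlip, 15 for Cpa1, 17 for Clps and Tnnt3, and 21 for Acta1 and Mylpf. In relative log2 Ctrc stood at -1.71 ± 0.28 (SD, n = 2) in PN0 wild type on the sufficient diet and -1.29 ± 0.32 on the deficient diet, and at -2.79 ± 0.47 in PN0 null on the deficient diet. At PN21 it was 0.07 ± 0.40 (n = 3) in wild type deficient, -0.13 for the mean of the wild-type sufficient pool, 0.08 ± 0.29 and 0.13 ± 0.06 (n = 2 each) in null sufficient and deficient, and -0.21 ± 0.82 and -0.61 ± 0.50 (n = 3 each) in R-Cyp1b1-null sufficient and deficient. The 14 PN21 samples ranged from -1.19 to 0.67 and the 7 PN0 samples other than null sufficient array 2 from -3.12 to -1.06. The ranges overlapped at the lowest PN21 samples. In wild type on the sufficient diet the difference between the ages was 1.57 ± 1.32 (SE, limma adjusted p = 0.682). Cel showed no such order, with -2.52 to -0.61 at PN21 and -2.39 to -1.81 at PN0. Clps went the other way, with medians of -4.48 over the PN21 samples and -2.74 over those PN0 samples, in ranges that overlapped (-5.16 to -0.48, and -3.39 to -0.83). At PN21, Clps was well above background on 1 of 3 wild-type sufficient arrays and on 0 of 3 R-Cyp1b1-null deficient arrays. Age and slide cannot be told apart in any of these orders, since PN21 arrays lay on slides 1 to 4 and PN0 arrays on slides 5 and 6.

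Within the 14 PN21 samples the share of a gene's sum of squares that lay between groups was 31.9% (Ctrc) to 84.8% (Tnnt3, over 13 samples), against 38.7% for the median gene. The standing Tnnt3 probe was well above background on none of the PN21 Cyp1b1-null arrays, which all lay on slide 4, while its other probe was on all of them. The part of slide and detection limit in these shares was not tested.

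Members were correlated across samples, within and between the tissues. Over the 22 samples the median r was 0.82 among the 10 muscle pairs and 0.42 among the 10 pancreas pairs, and 0.68 over the 25 pairs of a pancreas with a muscle gene. Without PN0 null sufficient array 2 these were 0.70, 0.44 and 0.28, and over the 14 PN21 samples 0.68, 0.57 and 0.67, so that at PN21 pairs across tissues were correlated about as closely as pairs within muscle. These are descriptions, since the samples share slides and detection limits and that array chose the members. Over the 14 PN21 samples 3 pairs were tested by two-sided permutation with p adjusted over the 3. The permutation treated the samples as exchangeable, although they fall in groups and share slides, so its p-values allow for neither. Ctrc with Cel gave r = 0.64 (p = 0.0142, adjusted 0.0427) and rho = 0.43 (p = 0.130, adjusted 0.195). Without the 2 samples farthest from the median of Ctrc r was 0.43 (permutation adjusted p = 0.273), so the relation rests on those samples, and with quantile normalization r was -0.13. Mb and Ckm passed the filter on low signal only through the PN0 null sufficient group, Mb was well above background on no PN21 array and Ckm on 1, so their correlations at PN21 are between signals at the detection limit and are given as values only. Mb with Ckm gave r = 0.53, and 0.41 without the 2 samples farthest from the median of Mb. Ctrc with Mb gave r = -0.11.

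Genes with the pattern most like Ctrc over the 22 samples were Myf6 (r = 0.93), Cela2a (0.90), Nol3 (0.88), Neb (0.85), Cel (0.82), Nrap (0.80), Rnase1 (0.80) and Smarcd3 (0.78). Without PN0 null sufficient array 2, Cela2a kept r = 0.90 and Myf6 0.88, while Nrap had 0.59. Genes most like Mb were Eno3 (0.90), Myh7 (0.89), Fabp3 (0.88), Cox8b (0.87), Sln (0.87), Myl1 (0.87), Nexn (0.86) and Cav3 (0.86), and without that array their r lay between 0.68 (Nexn) and 0.75 (Myl1). Over the 14 PN21 samples it lay between 0.41 (Cav3) and 0.73 (Myl1). Both rankings were made with the array that chose the members. Mb was well above background on 4 of the 24 arrays, so its r values mostly use signal at the detection limit. They are given as descriptions. Of these 16, Cel is a member, Cela2a stands on the exocrine list and Eno3, Myh7, Cox8b, Sln, Myl1 and Neb stand on the skeletal muscle list.

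In the comparisons without the PN0 null sufficient group, 0 of the 34 other skeletal muscle genes and 0 of the 18 other exocrine genes were called with limma. In the PN21 wild-type diet comparison 33 of 34 other skeletal muscle genes and 13 of 18 exocrine genes were above 0 (medians 0.95 and 0.89, all genes -0.02), and in the R-Cyp1b1-null diet comparison 32 of 34 and 14 of 18 were below 0 (medians -0.92 and -0.85). The same 2 arrays of slide 3 enter these counts as enter those of the members.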

How the data were processed

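Liver RNA was hybridised in 1 colour (Cy3) to arrays on 6 slides of 4, scanned on 3 days. Per the file headers, the authors used Agilent Feature Extraction 10.7.3.1; its output holds a processed intensity after background subtraction, flags for outlier spots and for signal well above background, and probe positions in build mm9. Per the submitters' processing notes limma was also used, with no version stated. The authors' deposited series table held the same intensity, within a relative difference of 0.00497. Further steps of the authors were not given in the sources used here.

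Here controls and 2048 spots marked as outliers were dropped, spots of each of 41174 probes were averaged, and the array's 75th percentile was subtracted from log2 intensity; the deposited intensity itself is not on a log2 scale. Of the probes, 27816 took a gene name by RefSeq accession, 5503 by symbol and 380 by synonym, while 7475 kept the array's own. The filter asked that all arrays of some group read a probe well above background, and the brightest measured probe stood for a gene. Limma 3.58.1 in R 4.3.3 fitted the means of all 10 groups to 22 samples (12 residual and 3.95 prior degrees of freedom), and calls had a Benjamini-Hochberg adjusted p under 0.05 over 20537 genes. Tnnt3 lacked 1 value, an outlier spot of PN21 wild-type deficient array 3, and was fitted without it. Correlations used 100000 permutations (Python 3.11.15, scipy 1.17.1). The fit and the permutation test were tested on simulated data. Across arrays the 75th percentile ran from 155.2 to 1963 and the share of probes well above background from 33.7% to 90.2%. Precision is limited by how few arrays there are.

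The members and lists were chosen with earlier results of these data known. The genes named are the members, the 8 genes most like Ctrc and the 8 most like Mb, and up to 3 called genes of each list or else the 2 with the largest difference between the 2 PN0 null sufficient arrays; further list genes were named after their values were seen. Replicate numbers were not taken to pair the samples: in each of the 3 comparisons between groups of 3, some same-numbered arrays had deviations correlated below 0.1 (-0.59 to 0.40 in all), although 2 pairs of groups not compared here had 0.45 to 0.88, and same-numbered arrays share a slide. The alternatives were normexp background correction (offset 50), quantile normalization, the percentile over probes detected on all arrays, no filter, the mean of probes, the series table, groups of the same age, slide as a random block, a replicate block, the pool's arrays as 3 samples, and leaving out arrays.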

Additional observations from a re-analysis of the deposited data

How the results depend on the processing

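The 0 calls among the 10 genes in the 7 comparisons without the PN0 Cyp1b1-null sufficient group became 1 (Pnlip, PN21 Cyp1b1-null against wild type) with slide as a random block, with the replicate block, with the pool's arrays as 3 samples (which both block fits also assume), and without the 2 poorly correlating arrays; leaving out each array in turn gave 0 to 1. Without those 2 arrays and PN0 Cyp1b1-null sufficient array 2, an alternative chosen after seeing the data, there were 2 (Pnlip, and Ctrc in wild type at PN21 against PN0). Without the 2 arrays, 2689 genes in all were called in PN21 Cyp1b1-null against wild type, against 4 with them. Over the alternatives the calls among all genes in that comparison ran from 0 (quantile normalization) to 2689. The counts of members called are therefore not read as a result about the members. The other alternatives gave 0. No slide held both PN21 Cyp1b1-null and wild-type arrays, so the slide block does not separate genotype from slide in the Pnlip comparison. Calls over all genes ranged from 1 to 6264 in PN0 Cyp1b1-null against wild type (487 as reported) and from 146 to 3419 between the ages (383 as reported), and from 0 to 596 for the diet in PN0 wild type (0 as reported, 596 without the 2 poorly correlating arrays, which bear on it only through the spread). The correlation of Ctrc with Cel over the PN21 samples fell from 0.64 to 0.48 without the 2 poorly correlating arrays and to 0.43 without the 2 samples farthest from the median, and was -0.13 with quantile normalization. That of Mb with Ckm was 0.53, 0.78 without the 2 poorly correlating arrays, 0.41 without the 2 farthest samples and 0.28 with quantile normalization. The median differences between the PN0 null sufficient arrays, 5.36 for pancreas and 8.31 for muscle, ranged from 4.69 to 5.41 and from 6.64 to 8.36 under other background, scaling and probe rules. The median of all genes in PN0 Cyp1b1-null against wild type moved from -0.48 to -0.11 with the percentile over probes detected on all arrays. Over the age comparison 3 members were higher, 7 with that percentile. The cause of these changes was not tested. Signals near background (Mb, Ckm and Pnlip on most arrays) limit what the arrays resolve.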
